A study of Mus musculus with 9 samples.

Results

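Leukocytes are steered to sites of infection and held in or released from bone marrow by a family of membrane receptors that couple to Gi proteins. The 10 described here were Ccr1, Ccr2, Ccr7, Cx3cr1, Cxcr2 and Cxcr4, which bind chemokines, and Fpr1, Fpr2, C5ar1 and Ltb4r1, which bind formyl peptides, the complement fragment C5a and leukotriene B4. They were taken by gene symbol, and the list was set with earlier results of these data known. All 10 were present among the 37187 genes of the LSK table and the 45076 genes of the neutrophil table. In marrow, Cxcr4 holds stem cells and neutrophils in place through its ligand Cxcl12, and Cxcr2 draws mature neutrophils out. Ccr2 and Cx3cr1 are classical monocyte receptors, Ccr7 guides lymphocytes and dendritic cells to lymph nodes, and Fpr1, Fpr2, C5ar1 and Ltb4r1 are characteristic of phagocytes.

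RNA-seq libraries came from 4 groups of mouse bone marrow cells, taken at 4 to 12 weeks of age. LSK cells, a marrow fraction with the blood-forming stem cells and early progenitors, gave 2 Spop(D/D) libraries and 2 Spop(+/+) libraries. Ly6G+ neutrophils gave 3 Spop(D/D) libraries and 2 Spop(+/+) libraries. Spop is the substrate adaptor of a cullin-3 ubiquitin ligase. Spop(D/D) samples are titled KO and are called knockout here, and Spop(+/+) samples, titled WT, are called wild type. No Cre line, deleted exon or animal of origin is given in the sources used here, so p-values reflect a spread between libraries that could be technical. Libraries held 18827892 to 20264417 counted reads in LSK cells and 21012702 to 27434086 in neutrophils, and 3 reads, used as a floor for detection, corresponded to 0.109 to 0.159 CPM, the usual unit of read counts scaled to library size. That range is by total counts, without the TMM factors for library size applied to the levels below.

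The labels were read against marker genes and the targeted gene. Spop was at 312 and 306 CPM (with TMM factors for library size) in knockout LSK libraries, against 380 and 390 CPM in wild-type LSK libraries. In neutrophils it was at 158, 178 and 210.0 CPM in knockout libraries, against 135 and 194 CPM in wild-type libraries, so whole-gene reads did not separate the genotypes there. The second knockout LSK library is a neutrophil in its cell type field and an LSK sample in its title; Ly6g, the gene of the sorting marker, had 0 reads in it and in the other LSK libraries. Kit, a defining LSK receptor, was at 605 and 644 CPM in knockout LSK libraries and 990 and 1049 CPM in wild-type LSK libraries. Among neutrophil libraries, wild-type library 2 and knockout library 3 stood apart. Wild-type library 2 had the lowest summed neutrophil markers (12 genes, 38719 CPM, against 223668 to 674163 CPM in the other 4) and the highest B cell, T and NK cell, dendritic and monocyte markers, and knockout library 3 had the highest summed neutrophil and erythroid markers. In that neutrophil sum S100a8 was at 294327 CPM in knockout library 3, against 58569 and 54639 CPM in knockout libraries 1 and 2.

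In knockout LSK cells 5 of the receptors rose and 2 others fell. Ccr2 rose 10.03-fold, Cxcr2 4.60-fold, Ccr1 3.89-fold, Cx3cr1 3.55-fold and Ltb4r1 2.29-fold, while Ccr7 fell 4.84-fold and Cxcr4 fell 1.45-fold. The other 3, Fpr1, Fpr2 and C5ar1, had too few reads to be tested. The test was edgeR's quasi-likelihood test with Benjamini-Hochberg adjustment over the 13008 genes that passed the filter on low counts, at a threshold of 0.05. Over all of these genes 42.2% passed it, 21% higher and 21.2% lower in knockout cells, so a call by itself was common, while 4.51% passed it with more than a 2-fold rise and 8.94% with more than a 2-fold fall. DESeq2 called the same 7 receptors. With upper-quartile scaling 39.0% of all calls were higher, against 49.8% with TMM, and without wild-type library 1 the calls over all genes numbered 3524 in place of 5494. In one fit of all 9 libraries, which applies a single spread that includes the neutrophils, 0 genes were called in LSK cells, with 958 at an unadjusted p under 0.05 and adjusted p-values of 0.326 to 0.825 for the 7 receptors. Every count in these bulk libraries mixes cell number with RNA content, and fewer cells of a type and less RNA per cell cannot be told apart.

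**Figure D1:**
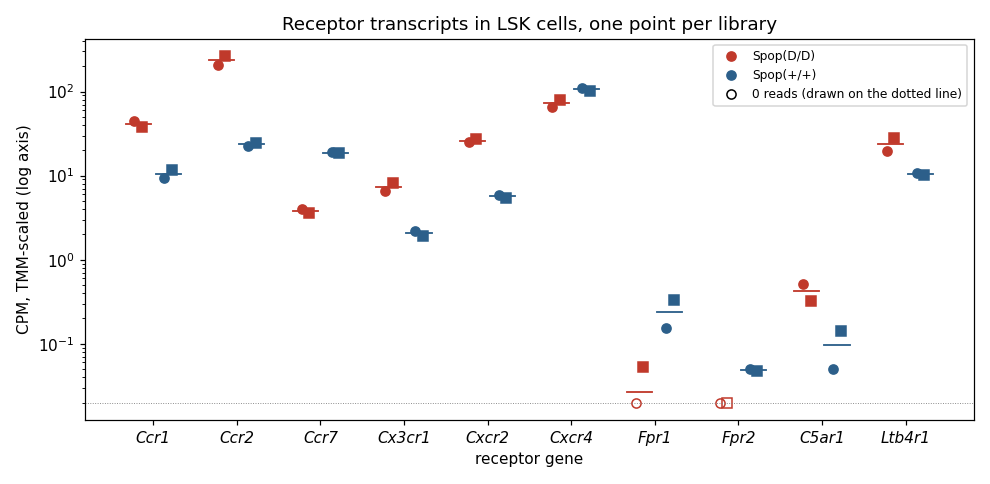
Levels of the 10 receptors in LSK cells, with CPM on a log axis and 1 point per library, knockout (2 libraries) left of wild type (2 libraries). Short lines mark group means, point shapes the replicate number, and open points on the dotted line libraries with 0 reads. Ccr2 is at 209 and 263 CPM in knockout libraries against 22.6 and 24.5 CPM in wild-type libraries, and Fpr1, Fpr2 and C5ar1 are the lowest of the 10 in both groups.

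Of the receptors for inflammatory CC chemokines, Ccr2 responds to Ccl2 and Ccl7 and is needed for monocytes to leave the marrow. It was at 209 and 263 CPM in knockout LSK libraries, against 22.6 and 24.5 CPM in wild-type LSK libraries. Both knockout values lay above both wild-type values, and the log2 fold change was 3.33 (SE 0.134, interval 3.03 to 3.62 at 95% confidence, edgeR adjusted p = 2.16e-08). Ccr1, which binds Ccl3, Ccl5 and Ccl9, was at 44.3 and 38.1 CPM in knockout LSK libraries, against 9.38 and 11.8 CPM in wild-type LSK libraries. Its groups were also apart, and its log2 fold change was 1.96 (SE 0.180, interval 1.57 to 2.35, edgeR adjusted p = 5.02e-06). Ccr1 (chromosome 9, 123962124 to 123968692, minus strand, GRCm38) and Ccr2 (chromosome 9, 124101950 to 124113557, plus strand) lie in the same chemokine receptor cluster. Reads that match close relatives could have been split or dropped in the counting, so values of Ccr1 and Ccr2 carry that uncertainty, as do those of Fpr1 and Fpr2.

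Cxcr2, the receptor for Cxcl1, Cxcl2 and Cxcl5, was at 25.3 and 27.0 CPM in knockout LSK libraries, against 5.93 and 5.44 CPM in wild-type LSK libraries. The log2 fold change was 2.20 (SE 0.198, interval 1.77 to 2.63, edgeR adjusted p = 4.41e-06). Cxcr4, the receptor for Cxcl12, was at 66.4 and 80.2 CPM in knockout LSK libraries, against 112 and 101 CPM in wild-type LSK libraries. This was the smallest change among the 7 tested receptors, at -0.54 on the log2 scale (SE 0.121, interval -0.80 to -0.28, edgeR adjusted p = 0.00337), and without wild-type library 1 it no longer passed the threshold (-0.46, adjusted p = 0.0551). Per kilobase of exon, the ratio of Cxcr2 to Cxcr4 was 0.226 and 0.200 in knockout LSK libraries, against 0.0315 and 0.0319 in wild-type LSK libraries. The log2 ratio differed by 2.75, with no overlap between groups. The exact two-sided permutation p was 0.333, the smallest that 2 against 2 libraries can give, so this test cannot decide. The ratio restates the changes of Cxcr2 and Cxcr4 given above and is no separate result.

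Cx3cr1, the fractalkine receptor, was at 6.52 and 8.09 CPM in knockout LSK libraries, against 2.18 and 1.92 CPM in wild-type LSK libraries (log2 fold change 1.83, SE 0.329, interval 1.12 to 2.54, edgeR adjusted p = 0.000735). Ltb4r1, the high-affinity receptor for leukotriene B4, was at 19.7 and 28.0 CPM in knockout LSK libraries, against 10.8 and 10.1 CPM in wild-type LSK libraries (log2 fold change 1.19, SE 0.211, interval 0.73 to 1.65, edgeR adjusted p = 0.000668). Knockout and wild-type libraries did not overlap for either gene. Ccr7, the receptor for Ccl19 and Ccl21, went the other way, at 4.07 and 3.62 CPM in knockout LSK libraries against 18.9 and 18.4 CPM in wild-type LSK libraries. Its log2 fold change was -2.28 (SE 0.225, interval -2.76 to -1.79, edgeR adjusted p = 8.67e-06). Groups that do not overlap were common with 2 libraries each, at 72.9% of all genes tested.

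The formyl peptide and C5a receptors were near the limit of detection in LSK cells. Fpr1 had 0 and 1 reads in knockout LSK libraries, against 3 and 7 reads in wild-type LSK libraries. Fpr2 had 0 and 0 reads in knockout LSK libraries, against 1 and 1 in wild-type LSK libraries. C5ar1 had 10 and 6 reads in knockout LSK libraries, against 1 and 3 in wild-type LSK libraries. Most of these values lay around the floor of 3 reads, so no fold is given. Per kilobase, the order of levels in knockout LSK cells was led by Cxcr4 (40.5 ± 5.43 CPM per kilobase) and Ccr2 (34.9 ± 5.72, SD, n = 2 each), whose library ranges overlapped. In wild-type LSK cells Cxcr4 (58.9 ± 4.09 CPM per kilobase) led, and Ccr7 (9.42 ± 0.171) came next, ahead of Ltb4r1 (7.49 ± 0.364, SD, n = 2 each). Ccr1 (3.73 ± 0.597 CPM per kilobase) and Ccr2 (3.48 ± 0.200), which overlapped, came after these.

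Markers of other cell types moved with genotype in the same LSK libraries. The 10 granulocyte-monocyte progenitor markers (Mpo, Elane, Prtn3, Ctsg and others), all detected in every LSK library, summed to 16540 and 19505 CPM in knockout libraries, against 1711 and 2276 CPM in wild-type libraries. The 12 monocyte and macrophage markers in the table summed to 792 and 1104 CPM in knockout LSK libraries, against 180 and 244 CPM in wild-type LSK libraries, and 5 rose and 6 fell. F13a1, a coagulation factor of monocytes, made up most of that sum, at 539 CPM in knockout against 33.2 CPM in wild-type LSK cells, and the C1q genes of macrophages were among those that fell. Of the 10 progenitor markers, summed at 2876 and 3131 CPM in knockout against 5146 and 4878 CPM in wild-type LSK libraries, 9 fell and Ly6a rose. The 12 neutrophil markers summed to 323 and 260.2 CPM in knockout against 222 and 233 CPM in wild-type LSK libraries, most of it Csf3r, at 184 CPM in knockout and 190.2 CPM in wild-type LSK cells, which did not pass the threshold. Of 9 tested, 2 rose, Lcn2 to 57.2 CPM in knockout against 1.83 CPM in wild-type LSK cells (edgeR adjusted p = 8.64e-09) and Mmp8 to 5.01 CPM in knockout against 0.633 CPM in wild-type LSK cells (0.000244). Of the same list 2 fell, Ngp to 0.810 CPM in knockout against 7.36 CPM in wild-type LSK cells and Ltf to 0.237 CPM in knockout against 1.72 CPM in wild-type LSK cells. Ly6g and Stfa2l1 had 0 reads in all 4 LSK libraries. The 10 B cell markers summed to 67.8 and 72.6 CPM in knockout LSK libraries, against 233 and 219 CPM in wild-type LSK libraries, with Pax5 at 0 reads in both knockout libraries. The 8 dendritic markers summed to 606 and 719 CPM in knockout LSK libraries, against 962 and 964 CPM in wild-type LSK libraries, with Cd209a at 0 reads in both knockout libraries. That lower sum came from Flt3, also a progenitor marker, and without Flt3 the sum was 335 and 422 CPM in knockout against 226 and 220.1 CPM in wild-type LSK libraries. Of 7 dendritic markers tested 2 rose, Irf8 to 255 CPM in knockout against 119 CPM in wild-type LSK cells and Bst2 to 116 CPM in knockout against 91.1 CPM in wild-type LSK cells, and 2 fell, Flt3 and Clec9a. Of 8 eosinophil, basophil and mast cell markers 6 rose, among them Mcpt8 to 41.5 CPM in knockout LSK cells against 12.8 CPM in wild-type LSK cells, and of 10 erythroid markers 8 fell. The part of these cell types in the receptor changes was not tested.

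Upstream sequence is shown for a pair of receptors that rose, Ccr1 and Ltb4r1, and for the one that fell least, Cxcr4, a choice made after their values were seen. Each line is the 250 bases before the RefSeq gene start on GRCm38.p6, 5′ to 3′ on the gene's strand, from chr9:123968693-123968942 (minus), chr14:55765712-55765961 (plus) and chr1:128592300-128592549 (minus). Capitals mark GAGGAA or its reverse complement TTCCTC, the core of the sequence bound by the myeloid factor PU.1.
Ccr1: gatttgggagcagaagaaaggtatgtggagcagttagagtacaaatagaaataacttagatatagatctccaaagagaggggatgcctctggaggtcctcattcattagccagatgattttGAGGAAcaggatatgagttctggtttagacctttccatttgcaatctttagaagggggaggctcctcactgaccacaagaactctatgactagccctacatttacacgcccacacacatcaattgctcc
Ltb4r1: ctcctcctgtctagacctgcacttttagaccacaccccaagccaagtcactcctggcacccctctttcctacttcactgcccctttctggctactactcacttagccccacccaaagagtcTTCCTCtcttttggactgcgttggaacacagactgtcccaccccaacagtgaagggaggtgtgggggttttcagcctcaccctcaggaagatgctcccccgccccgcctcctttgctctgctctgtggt
Cxcr4: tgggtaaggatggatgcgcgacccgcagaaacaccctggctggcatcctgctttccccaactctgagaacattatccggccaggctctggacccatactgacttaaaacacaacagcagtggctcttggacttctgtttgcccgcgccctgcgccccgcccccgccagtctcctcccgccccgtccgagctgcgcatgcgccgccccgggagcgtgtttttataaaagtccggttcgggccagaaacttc
The match lies at -129 in the Ccr1 window and at -129 in the Ltb4r1 window, and the Cxcr4 window holds none. Among the 9 receptors with a RefSeq promoter entry, 4 windows held GAGGAA on either strand, against 23.3% of 32851 promoters. Ccr7, which fell more than Cxcr4, had no entry, so receptors that rose and fell cannot be compared for this match. Of the 5 receptors that rose in LSK cells, Ccr1, Cxcr2 and Ltb4r1 hold it and Ccr2 and Cx3cr1 do not, and the other window with it is that of Fpr2, which was not tested in LSK cells. TTNNGNAA, a C/EBP-type core, was in 6 of the 9 windows, against 36.8% of all promoters, and TGTGGT, the RUNX core, in 4 of 9, against 14%. A GAGGAA preceded by TT, as in the Ccr1 window, also counts as a TTNNGNAA. A match describes these letters only and does not show that a factor binds there.

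**Figure D2:**
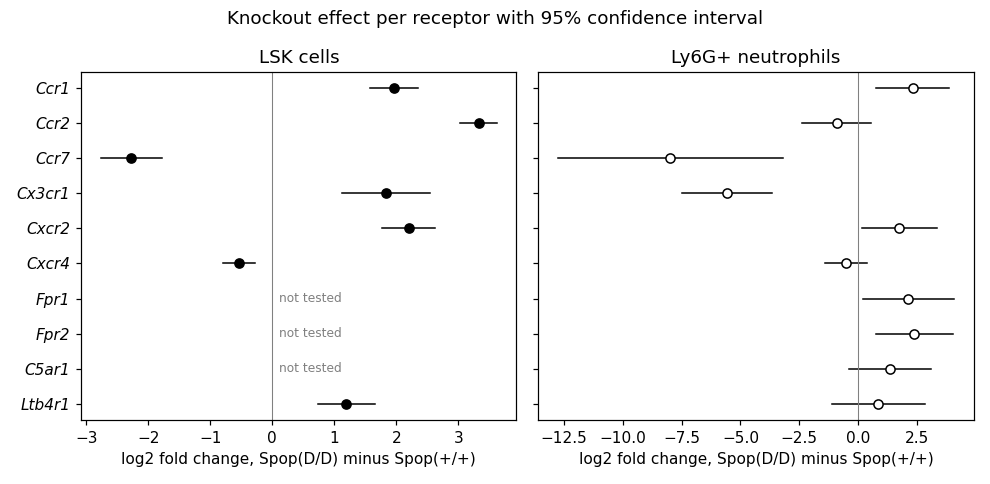
Log2 fold change of each tested receptor, knockout over wild type, in LSK cells and in neutrophils, with bars for 95% confidence intervals from edgeR, filled points for those past the threshold, and a different scale in each panel. In LSK cells the intervals of all 7 tested receptors lie off 0, from 3.33 for Ccr2 to -2.28 for Ccr7. In neutrophils the intervals are wider and no receptor passed the threshold.

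The other genes of these pathways were read from lists set for each role. Of 19 other chemokine receptors, 11 could be tested in LSK cells, and 3 rose, among them Ackr1 and Ccr10, and 4 fell (Ccr9, Ccrl2, Ccr3, Cxcr3). In all 63.6% of the 11 were called, against 42.2% of all genes tested. Ccr9, a receptor of lymphoid progenitors and T cells, fell to 1.87 CPM in knockout cells against 14.4 CPM in wild-type cells. Ccrl2, a non-signalling relative, fell to 14.0 CPM in knockout cells against 29.4 CPM in wild-type cells. The median log2 fold change over the 11 was -0.21, against -0.03 over all genes tested. Of 18 other chemoattractant receptors, 11 were tested, and 5 rose (Ffar2, S1pr3, S1pr2, P2ry2, Gpr84) and 3 fell (S1pr1, Ptafr, S1pr4), with a median of 0.43. Here 72.7% of those tested were called, against the same 42.2%. Gpr84 lies outside the rule for naming genes and was named after its value was seen. Ffar2, a short-chain fatty acid receptor of phagocytes, rose to 54.2 ± 0.263 CPM in knockout cells against 18.3 ± 0.782 CPM in wild-type cells (SD, n = 2 each). Among the sphingosine 1-phosphate receptors, S1pr3 (log2 fold change 1.24) and S1pr2 (0.84) rose, and S1pr1, which guides lymphocytes out of tissue, fell (-1.20).

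Among 21 ligands of the 10 receptors, 9 were tested, and 2 rose (Anxa1, Saa3) and 5 fell (Ccl4, Ccl3, Cx3cl1, Ppbp, Ccl5), with a median log2 fold change of -0.90. In all 77.8% of the 9 were called, against 42.2% of all genes tested. Ccl5 was named after its value was seen. Ccl4, an inflammatory chemokine, fell to 5.63 ± 0.216 CPM in knockout LSK cells against 28.0 ± 2.58 CPM in wild-type LSK cells. Ccl3, a ligand of Ccr1, fell to 3.63 ± 0.127 CPM in knockout LSK cells against 19.4 ± 4.79 CPM in wild-type LSK cells (SD, n = 2 each). Anxa1, a ligand of formyl peptide receptors, rose to 388 CPM in knockout against 243 CPM in wild-type LSK cells. Of the 4 genes of leukotriene B4 synthesis, the pathway upstream of Ltb4r1, 3 rose, or 75%, where 21% of all genes tested rose. Lta4h, the hydrolase that makes leukotriene B4, rose to 643 ± 107 CPM in knockout cells against 287 ± 9.87 CPM in wild-type cells, and Alox5, the 5-lipoxygenase, rose to 9.07 CPM in knockout cells against 4.53 CPM in wild-type cells. Alox5ap was at 195 CPM in knockout and 225 CPM in wild-type LSK cells and did not pass the threshold (edgeR adjusted p = 0.116).

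Downstream of the receptors, 22 genes for G proteins, phosphoinositide 3-kinase and Rac signalling were tested, and 4 rose and 6 fell, in all 45.5% of them against 42.2% of all genes tested, which is near the background and no result about the list. Pik3r6, a regulatory subunit of PI3K gamma, rose (log2 fold change 1.38), and Gng11 (-1.35) and Gng2 (-0.81), G protein gamma subunits, fell. Of the genes that switch receptors off, 14 were in the table and 13 were tested, and none rose and 5 fell, with a median of -0.41. The share called, 38.5% against that 42.2%, is near the background and no result about the list. Counted as falls alone, the same 38.5% stood against 21.2% of all genes tested. Rgs1, which quenches Gi signalling, fell to 33.6 ± 9.79 CPM in knockout LSK cells against 138 ± 10.5 CPM in wild-type LSK cells (SD, n = 2 each). The arrestins Arrb1 (-0.80) and Arrb2 (-0.43) and the receptor kinase Grk2 (-0.43) fell as well, as did Rgs10 (-0.72), named after its value was seen.

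**Figure D3:**
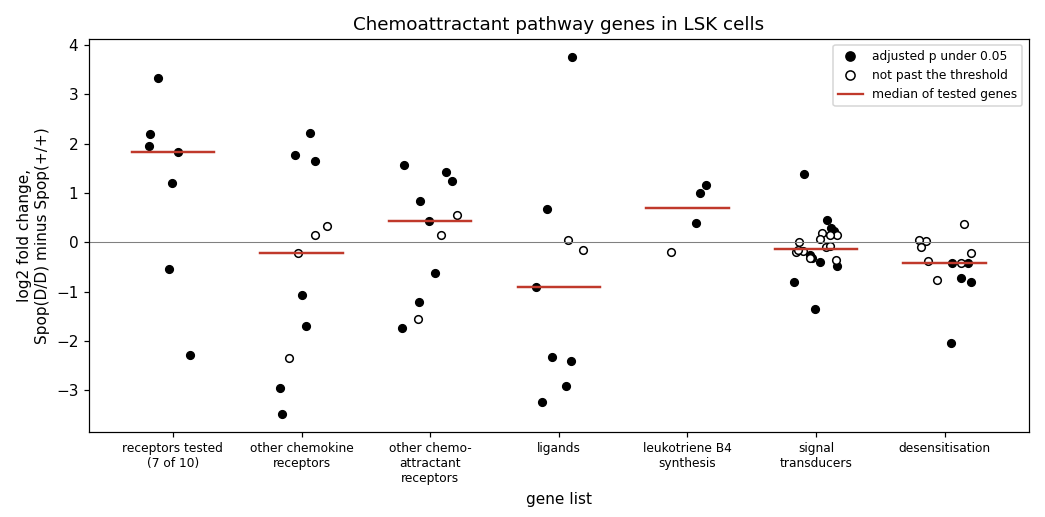
Log2 fold changes of the tested genes of each list in LSK cells, knockout over wild type, with 1 point per gene filled where it passed the threshold, and a line for the median of the tested genes. The 13 tested genes of receptor desensitisation have a median of -0.41, and the median of all genes tested is -0.03. Of these 13 genes 38.5% were called, against 42.2% of all genes tested.

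In neutrophils no receptor passed the threshold, and neither did any other of the 12836 genes tested, a share called of 0%. Unadjusted p-values were under 0.05 for 6 of the 10 receptors (Ccr1, Cxcr2, Fpr1 and Fpr2 higher, Ccr7 and Cx3cr1 lower in the knockout) and for 1787 genes, or 13.9%. DESeq2 called 891 genes, among them Ccr1 and Fpr2 higher and Ccr7 and Cx3cr1 lower. The 3 knockout libraries lay above both wild-type libraries for Ccr1, Cxcr2, Fpr1, Fpr2 and C5ar1, and below them for Ccr7 and Cx3cr1, where 17% of all genes tested lay apart as higher, 17.5% as lower and 34.5% in either direction. The neutrophil values are therefore given as descriptions with wide intervals.

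Among receptors of mature neutrophils, Fpr2, a formyl peptide receptor, was at 344, 439 and 747 CPM in knockout neutrophils, against 147 and 47.8 CPM in wild-type neutrophils. The log2 fold change was 2.39 (SE 0.690, interval 0.75 to 4.02, edgeR adjusted p = 0.229). Fpr1 was at 633, 695 and 462 CPM in knockout neutrophils, against 236 and 36.8 CPM in wild-type neutrophils, with a log2 fold change of 2.13 (SE 0.821, interval 0.19 to 4.07, edgeR adjusted p = 0.322). C5ar1 was at 1199, 1246 and 1098 CPM in knockout neutrophils, against 763 and 153 CPM in wild-type neutrophils, with a log2 fold change of 1.37 and an interval that includes 0 (-0.39 to 3.12). All knockout libraries lay above both wild-type libraries for these 3 genes, and wild-type library 2 was the lowest each time. Ltb4r1 was at 699, 1015 and 906 CPM in knockout neutrophils, against 853 and 109 CPM in wild-type neutrophils, and the genotypes overlapped.

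Ccr1 was at 676, 722 and 1134 CPM in knockout neutrophils, against 248 and 89.1 CPM in wild-type neutrophils (log2 fold change 2.32, SE 0.653, interval 0.78 to 3.87, edgeR adjusted p = 0.223). Cxcr2 was at 969.5, 1268 and 623 CPM in knockout neutrophils, against 424 and 143 CPM in wild-type neutrophils (1.75, SE 0.672, interval 0.16 to 3.34, edgeR adjusted p = 0.320). Cxcr4 was at 70.4, 68.8 and 98.5 CPM in knockout neutrophils, against 132 and 95.8 CPM in wild-type neutrophils, with overlap (-0.53, interval -1.43 to 0.37). The ratio of Cxcr2 to Cxcr4 per kilobase, which sets the exit receptor against the retention receptor, was 8.17, 10.9 and 3.76 in knockout neutrophils, against 1.90 and 0.886 in wild-type neutrophils. All knockout ratios lay above both wild-type ratios, with a log2 difference of 2.42, and the lowest ratio was that of wild-type library 2. The exact two-sided permutation p was 0.2, the smallest that 3 against 2 libraries can give, so this test cannot decide. Here too the ratio restates the values of Cxcr2 and Cxcr4 and is no separate result.

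The receptors of monocytes and lymphoid cells had the opposite order. Cx3cr1 was at 1.09, 1.26 and 0.245 CPM in knockout neutrophils, against 20.5 and 64.7 CPM in wild-type neutrophils (log2 fold change -5.59, SE 0.810, interval -7.50 to -3.67, edgeR adjusted p = 0.207). Ccr7 had 2, 3 and 10 reads in knockout neutrophils, at 0.0728, 0.119 and 0.612 CPM, against 1.89 and 124 CPM in wild-type neutrophils, so its fitted log2 fold change of -7.98 (adjusted p = 0.216) rested on wild-type library 2 and was -2.89 without it. Ccr2 was at 95.6, 19.6 and 49.0 CPM in knockout neutrophils, against 94.9 and 109.8 CPM in wild-type neutrophils, with overlap.

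Marker genes of other cells also differed between these libraries, not all in the same order. The 10 B cell markers summed to 5.57, 3.56 and 10.8 CPM in knockout neutrophils, against 75.3 and 2032 CPM in wild-type neutrophils, with Pax5 at 0 reads in all 3 knockout libraries. The 11 T and NK cell markers summed to 98.6, 42.0 and 135 CPM in knockout libraries, against 184 and 1296 CPM in wild-type libraries, with Ncr1 at 0 reads in all 3 knockout libraries. Nkg7, of this list, was at 79.7 ± 49.5 CPM in knockout against 232 ± 101 CPM in wild-type neutrophils (SD, n = 3 and 2). It was also at 470 CPM in knockout and 329 CPM in wild-type LSK cells. The 8 dendritic markers summed to 64.5, 130 and 35.2 CPM in knockout libraries, against 166 and 661 CPM in wild-type libraries. The 12 monocyte and macrophage markers summed to 895, 1161 and 301 CPM in knockout libraries, against 929 and 1823 CPM in wild-type libraries. F13a1 supplied 568, 870 and 109 CPM of this in knockout libraries, against 332 and 128 CPM in wild-type libraries. Of these 12 markers, 9 were lower in all knockout libraries than in both wild-type libraries, and 0 were higher in this way. Over all genes tested these shares were 17.5% and 17%. The 9 erythroid markers in the table summed to 36.5, 2.01 and 18374 CPM in knockout libraries, against 1745 and 3671 CPM in wild-type libraries. The 12 neutrophil markers, all detected in each library, summed to 230309, 245663 and 674163 CPM in knockout libraries, against 223668 and 38719 CPM in wild-type libraries. Wild-type library 2 had the lowest value of Fpr1, Fpr2, C5ar1, Ltb4r1, Ccr1 and Cxcr2 and the highest of Cx3cr1 and Ccr7. The part of these cell types in the receptor values was not tested.

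**Figure D4:**
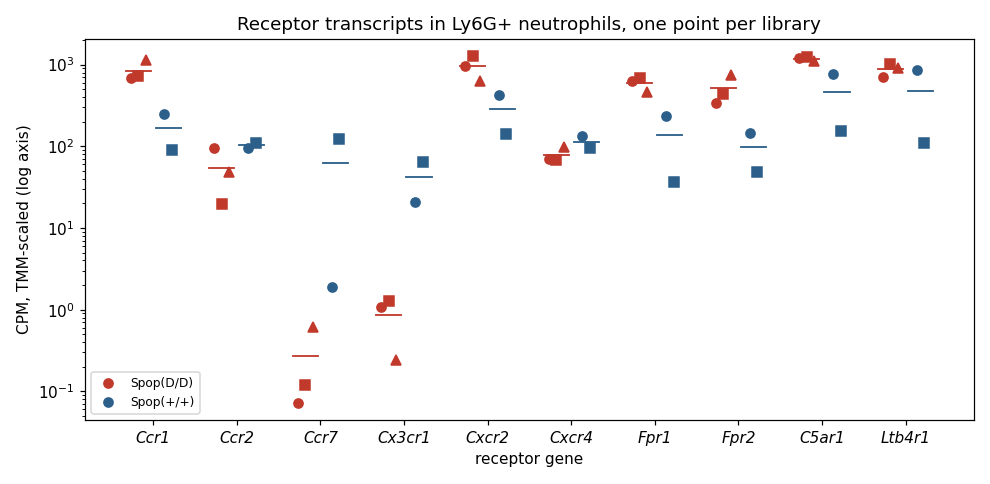
Levels of the 10 receptors in neutrophils, with CPM on a log axis and 1 point per library, knockout (3 libraries) left of wild type (2 libraries). Short lines mark group means and point shapes the replicate number. Ccr1, Cxcr2, Fpr1, Fpr2 and C5ar1 are higher in all 3 knockout libraries than in either wild-type library, and Ccr7 and Cx3cr1 are lower in all 3.

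Values were also read without the libraries that stood apart, a choice made after seeing the data. With knockout libraries 1 and 2 against wild-type library 1, log2 fold changes were 1.48 for Ccr1, 1.47 for Fpr1, 1.39 for Fpr2, 1.38 for Cxcr2, 0.66 for C5ar1, -0.0130 for Ltb4r1, -0.72 for Ccr2, -0.94 for Cxcr4, -4.14 for Cx3cr1 and -4.26 for Ccr7. On these libraries edgeR called 0 genes, with 2367 at an unadjusted p under 0.05. With wild-type library 2 as the lone wild-type library, edgeR called 601 genes, among them Ccr1 (3.30), Fpr1 (4.08), C5ar1 (3.01) and Ltb4r1 (3.06) higher and Ccr7 (-8.93) and Cx3cr1 (-6.12) lower. Set against reads of Ly6g in place of library size, also chosen after seeing the data, Fpr1 was the receptor whose knockout libraries all lay above wild type, at 0.905, 1.98 and 0.506 reads per Ly6g read in knockout neutrophils against 0.459 and 0.429 in wild-type neutrophils; of the 12835 genes tested other than Ly6g, 0.935% were higher in this way. On that scale Ccr2, Ccr7, Cx3cr1 and Cxcr4 were lower in all 3 knockout libraries, as were 24.7% of those genes, and Ccr1, Cxcr2, Fpr2, C5ar1 and Ltb4r1 overlapped. This scale moves all genes of a library by the same factor, so it depends on 1 gene. Ly6g itself was at 700.1, 351 and 914 CPM in knockout libraries, against 515 and 85.7 CPM in wild-type libraries.

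**Figure D5:**
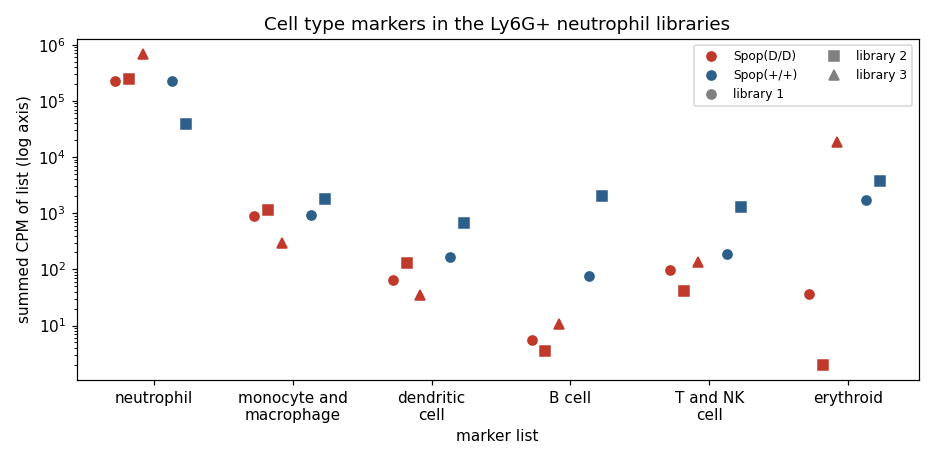
Summed CPM of marker lists in the neutrophil libraries, on a log axis, knockout (3 libraries) left of wild type (2 libraries). Wild-type library 2 has the highest B cell sum (2032 CPM) and the lowest neutrophil sum (38719 CPM), and knockout library 3 has the highest erythroid sum (18374 CPM).

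In the lists around the receptors no gene passed the threshold in neutrophils. Among the ligands, those of smallest p were Hc, the C5 precursor of the C5ar1 ligand, at 4.34 ± 2.31 CPM in knockout neutrophils against 0.0507 ± 0.0290 CPM in wild-type neutrophils, which lies below the floor, and Cxcl2, a ligand of Cxcr2, at 17.5 ± 11.7 CPM in knockout neutrophils against 2.48 ± 0.685 CPM in wild-type neutrophils (SD, n = 3 and 2). Alox5ap, which presents arachidonic acid to Alox5, was at 2468 ± 588 CPM in knockout neutrophils against 658 ± 311 CPM in wild-type neutrophils (edgeR adjusted p = 0.255). Cxcr1, a relative of Cxcr2, was at 9.69 ± 6.70 CPM in knockout neutrophils against 0.688 ± 0.822 CPM in wild-type neutrophils. Gpr183, an oxysterol receptor of lymphocytes and dendritic cells, was at 1.46 ± 0.380 CPM in knockout neutrophils against 37.6 ± 42.7 CPM in wild-type neutrophils. Adrbk2, an older name of the receptor kinase gene Grk3, was at 1.54 ± 0.405 CPM in knockout neutrophils against 18.8 ± 17.5 CPM in wild-type neutrophils. Rgs10 was at 3.70 ± 1.46 CPM in knockout neutrophils against 29.1 ± 25.0 CPM in wild-type neutrophils.

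Levels were compared between the populations in one fit of all 9 libraries over 13816 genes, joined from tables made apart for each population, so cell population and any difference in library handling cannot be told apart. In wild-type cells 25.3% of genes were called, 13.8% higher and 11.5% lower in neutrophils, and 9 of the 10 receptors were higher in neutrophils. Cxcr2 was higher by 7.05 on the log2 scale (edgeR adjusted p = 0.00123), Ltb4r1 by 6.94 (adjusted p = 0.00421), Cx3cr1 by 5.75 (0.00483), Ccr1 by 5.40 (0.00174), Ccr2 by 3.51 (0.0106) and Cxcr4 by 1.50 (0.0120). Fpr1, Fpr2 and C5ar1 also passed, with LSK values around the floor. They met the filter on low counts here only through their neutrophil reads, having been too low to test in LSK cells alone. Ccr7 did not (3.12, adjusted p = 0.146), and it turned to -1.85 without wild-type neutrophil library 2. These calls drew their spread from all 9 libraries, and with the 4 wild-type libraries alone 0 genes were called, with 4591 at an unadjusted p under 0.05 and adjusted p-values of 0.0515 to 0.0670 for the 9 receptors. Without wild-type LSK library 1 or 2, 355 and 384 genes were called in place of 3494, with 5 of the 10 receptors among them each time.

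In knockout cells 48.8% of genes were called, 21% higher and 27.9% lower in neutrophils, and 7 receptors were higher in neutrophils. Ccr1 (5.69 on the log2 scale), Cxcr2 (6.54), Ltb4r1 (6.53) and Cxcr4 (1.45) were among them. So were Fpr1, Fpr2 and C5ar1, which again met the filter on low counts only through their neutrophil reads. Fpr2 had 0 reads in the knockout LSK libraries and was at least 16235-fold higher in knockout neutrophils, with 3 reads over the LSK group as the floor. Ccr2 (-0.75), Cx3cr1 (-1.68) and Ccr7 (-2.65) did not pass the threshold (edgeR adjusted p = 0.283, 0.0658 and 0.156). Without knockout LSK library 1 or 2 the genes called numbered 3096 and 3170, in place of 6749. The order per kilobase in knockout neutrophils was Ltb4r1 (627 ± 115 CPM per kilobase), then C5ar1 (459.5 ± 29.5), Fpr1 (451 ± 91.0), Fpr2 (393 ± 163), Cxcr2 (313 ± 106) and Ccr1 (298 ± 89.1), where each neighbour after Ltb4r1 overlapped the next (SD, n = 3 each). Cxcr4 (43.8 ± 9.24 CPM per kilobase) and Ccr2 (8.10 ± 5.68) came apart below, and Cx3cr1 (0.192 CPM per kilobase) and Ccr7 (0.135), which overlapped, came last. In wild-type neutrophils Ltb4r1 (345 ± 378 CPM per kilobase) also came highest, but all neighbours in the order overlapped.

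The effect of the knockout in neutrophils was set against that in LSK cells as an interaction. By edgeR it called 4 of 13816 genes (0.029%) and none of the 10 receptors. Unadjusted edgeR p-values were under 0.05 for 2173 genes (15.7%) and for 4 receptors, Ccr2, Ccr7, Cx3cr1 and Fpr1. DESeq2 called 4 receptors and 1042 genes. Fpr1 had 0 and 1 reads in knockout LSK libraries, against 3 and 7 in wild-type LSK libraries. Its difference between effects is therefore limited by depth, and no value is given for it. Cx3cr1 rose in knockout LSK cells and lay lower in all knockout neutrophil libraries, and its difference between effects was -7.43 (SE 1.06, interval -9.88 to -4.98, edgeR adjusted p = 0.151). Ccr2, the other monocyte receptor, differed by -4.27 (SE 0.848, interval -6.22 to -2.31, edgeR adjusted p = 0.160). Cxcr4 differed by -0.05, with an interval of -0.96 to 0.86. Without wild-type neutrophil library 1 the interaction called 1404 genes.

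The genes with the most similar course over the 9 libraries were found by the root mean square difference of centred log2 CPM among 8986 genes, as a description only. Cxcr2 ran closest to Pi16 (0.227) and Siglece (0.276), and Cxcr4 to Usf2 (0.167). Ltb4r1 ran closest to Alox5 (0.346), the first enzyme of leukotriene synthesis. Fpr1 ran closest to Mmp25 (0.533) and Fpr2 (0.601), C5ar1 to Chil1 (0.595), Ccr1 to Mrgpra2b (0.475), and Ccr2 to Mthfd2 (0.620). Ccr7 ran closest to the B cell genes Ly6d (0.661) and Pou2af1 (0.746), and Cx3cr1 to Gpr183 (0.927).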

How the data were processed

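Per the labels, RNA from sorted marrow cells was isolated with RNeasy Micro and amplified by SMART-Seq v4 Ultra Low Input. The authors deposited raw read counts per gene for each population, and a signal table of normalized values; for 99.9% to 100% of genes with at least 50 reads in a library, these lay within 1% of the raw counts divided by 1 factor per library. Per the submitters' processing notes the tools were bcl2fastq, STAR, featureCounts and DESeq2, with mm10 and GRCm38; no version or strand setting is given in the sources used here. Without strand, reads of antisense partners cannot be told apart, and 1.73% of the Cx3cr1 exon bases are shared with Gm33858 on the opposite strand. Of the Fpr2 exon bases, 3.7% are shared with Fpr3 on the same strand.

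The tests on counts used edgeR 4.0.16 under R 4.3.3: TMM, its filter by group, robust quasi-likelihood fits, Benjamini-Hochberg adjustment and a threshold of 0.05. Each genotype comparison used the libraries of its own population, and comparisons across populations used a 4-group fit over 35220 genes joined by symbol, 789 through an older name. Exon lengths came from GENCODE M21. DESeq2 1.42.0 was an alternative, with other scalings, filters, left-out libraries and a replicate block.

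Since the counts carry no molecular identifiers, the floor of 3 reads covers counting error only. Replicates differed by more than sampling noise and each counted once. The named genes were the 10 receptors, up to 4 list genes of smallest p in each direction, of which the text gives a part, and the 3 most similar genes per receptor. The members, lists and tests were chosen with earlier results of these data known. Some results are not reported here.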

Additional observations from a re-analysis of the deposited data

Results flagged for a closer look

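The order of the Cx3cr1 values by genotype differed between the populations. Both knockout LSK libraries (6.52 and 8.09 CPM) lay above both wild-type LSK libraries (2.18 and 1.92 CPM), and all 3 knockout neutrophil libraries (1.09, 1.26 and 0.245 CPM) lay below both wild-type neutrophil libraries (20.5 and 64.7 CPM). The difference between the effects was -7.43 on the log2 scale. As an interaction in edgeR it had an adjusted p of 0.151, and by DESeq2 one of 7.82e-10. With 1 library left out in turn the difference ran from -7.98 to -6.34. The lower Cx3cr1 in knockout neutrophils did not itself pass the threshold (edgeR adjusted p = 0.207). Wild-type neutrophil library 2, highest for Cx3cr1, also had the highest summed monocyte and macrophage (1823 CPM), dendritic (661 CPM) and B cell (2032 CPM) markers of the neutrophil libraries, and their part in the value was not tested.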

How the results depend on the processing

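The LSK calls rest on the spread within that population. In one fit of all 9 libraries 0 genes were called in LSK cells, with 0 receptors higher and 0 lower, while 562 genes were called in neutrophils, with 1 receptor higher and 2 lower. Upper-quartile scaling put the median LSK change over all genes at -0.12, against -0.03 with TMM, and made 39.0% of calls higher, against 49.8% with TMM, and no receptor changed direction. With 1 library left out in turn, LSK calls numbered 3524 to 5718, with 1 to 2 receptors lower.

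In neutrophils 334 genes and 1 lower receptor were called with no filter, 2 genes with a filter of 1 CPM, and 891 genes, with 2 receptors higher and 2 lower, by DESeq2. Leaving out 1 library gave 0 to 601 genes, 0 to 4 receptors higher and 0 to 2 lower, Ltb4r1 ran from 0.00206 to 3.06, and it turned to -0.0130 without wild-type library 2 and knockout library 3. Samples shared only a replicate number (correlation of deviations 0.00393 in LSK cells, 0.239 and -0.0241 in neutrophils). With that number as a replicate block, neutrophils gave 334 genes and 2 receptors lower, and the interaction 0 genes.

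For neutrophils against LSK cells, leaving out 1 library gave 355 to 5061 genes and 5 to 10 receptors higher in wild type, where Ccr7 ran from -1.85 to 4.05 and the 4 wild-type libraries alone gave 0 genes and 0 receptors. In knockout cells it gave 3096 to 6651 genes, 6 to 7 receptors higher and 0 to 1 lower, and DESeq2 called 1 lower. For the interaction, 10 genes and 1 lower receptor were called with no filter, 1042 genes with 1 receptor higher and 3 lower by DESeq2, and 0 to 1404 genes, 0 to 2 higher and 0 to 3 lower with 1 library left out. There Cxcr4 ran from -0.20 to 0.26 (0.0572 by RLE scaling and 0.0570 by DESeq2), Cxcr2 from -1.02 to 0.55, C5ar1 from -1.55 to 0.93, Ltb4r1 from -1.15 to 1.81 and Ccr1 from -0.19 to 1.28.

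Per read of Ly6g, the log2 ratio of knockout to wild-type neutrophils was 0.90 for Ccr1, -3.16 for Ccr2, -10.93 for Ccr7, -7.78 for Cx3cr1, 0.60 for Cxcr2, -2.35 for Cxcr4, 1.02 for Fpr2 and 0.40 for C5ar1. Where a left-out library leaves 1 in its group, that one is assumed to vary like the other groups. The cause of these differences was not tested. Fpr1, Fpr2 and C5ar1 in LSK cells are limited by depth.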

Other observations

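Ly6a, which encodes the stem cell antigen Sca-1 used to sort LSK cells, was uneven among the sorted neutrophils. It was at 21.8, 312 and 28.0 CPM in knockout neutrophil libraries, against 2.78 and 276 CPM in wild-type neutrophil libraries, so the second library of each genotype was the highest. In LSK cells it was at 193 and 227 CPM in knockout libraries, against 169.5 and 157 CPM in wild-type libraries.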
